A study of Mus musculus with 44 samples.

Results

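Chromatin accessibility was examined at the loci of *Esrrb*, *Tfcp2l1*, *Tbx3* and *Prdm14*, 4 genes for transcription factors of the naive pluripotency network, in ATAC-seq libraries from mouse morulae and inner cell masses (ICMs). The peaks were those of the deposited table that lie in chr12:86340000-86540000 (*Esrrb*), chr1:118600000-118705000 (*Tfcp2l1*), chr5:119640000-119705000 (*Tbx3*) and chr1:13090000-13150000 (*Prdm14*) of the mm10 build. They numbered 81 of the 152393 peaks: 37 in the *Esrrb* locus, 21 in the *Tfcp2l1* locus, 10 in the *Tbx3* locus and 13 in the *Prdm14* locus. No peak crossed a border. By the GENCODE annotation, 47 of the 81 lay in an intron of the gene, 4 in a coding exon, 5 in a non-coding exon, 14 upstream and 11 downstream. 6 peaks lay within 100 bp of a start site of the gene, and the first annotated start of *Esrrb* had no peak nearer than 24921 bp.

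Naive pluripotency is the state of the preimplantation epiblast and of embryonic stem cells kept in a ground state. Oct4 (encoded by *Pou5f1*) and Sox2 are core factors of that state and can bind a composite OCT-SOX element side by side. *Esrrb* encodes an orphan nuclear receptor, *Tfcp2l1* a Grainyhead-like factor of the LIF pathway, *Tbx3* a T-box factor, and *Prdm14* a PR-domain zinc finger protein that acts in naive pluripotency and in germ cell specification. In stem cells these factors bind many of the same enhancers and each other's loci.

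The study compared *Pou5f1*-KO and *Sox2*-KO embryos with their controls. 44 libraries formed 12 groups. The *Pou5f1* line had Ctrl and KO morulae at E2.75 (3 libraries each), late morulae at E3.25 (3 each), early ICMs at E3.75 (4 each) and late ICMs at E4.5 (4 each), and the *Sox2* line had Ctrl and KO early and late ICMs (4 each). KO embryos were maternal-zygotic mutants: fathers were heterozygous for a fluorescent knockout allele (mKO2 in *Pou5f1*, EGFP in *Sox2*), and mothers carried floxed alleles that Zp3-Cre, which acts in the oocyte, had deleted. Ctrl embryos therefore also lacked the maternal gene and kept a paternal wild-type copy. The strain label of every library was B6C3F1. Each library was a pool of 20 to 40 morulae or ICMs. Both ICM stages came from embryos cultured with 1 µM PD0325901, a MEK inhibitor that holds back primitive endoderm, from E2.5 until the ICMs were freed from trophectoderm by immunosurgery, so a difference between morula and ICM is also one of treatment and culture.

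Values are the authors' rlog values, a log2 scale on which the counts of Tn5 insertions in a 200 bp window at each peak were regularized, so that differences at weak peaks are drawn toward 0 and understated. The count depth behind a value is unknown. The median rlog of a library was between 2.35 and 2.63, and the correlation between replicates across peaks was between 0.762 and 0.908. In pools, fewer cells with an open site and a less open site per cell cannot be told apart. Calls were made in limma where the adjusted p was under 0.05, with all 12 groups in the fit and adjustment over the 152393 peaks. The targeted genes checked the labels in part. Of 3 peaks at *Sox2*, 1 was called in *Sox2*-KO (chr3:34649826-34650025), where accessibility fell by 1.54 in early ICM (adjusted p = 0.013) and by 2.26 in late ICM (adjusted p = 1e-05), and in late ICM *Pou5f1*-KO lowered it too (-1.22, adjusted p = 0.019). The other two differed by -1.21 (adjusted p = 0.092) and -0.20 (adjusted p = 0.88) in *Sox2*-KO late ICM. Of 3 peaks at *Pou5f1*, 1 was called lower in *Pou5f1*-KO early ICM (chr17:35505888-35506087, -1.13, adjusted p = 0.015) and none at the other stages. The check was therefore only partial at both genes, and whether a peak lay in deleted DNA was not examined.

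The sequences below are those of the peaks on which the results turn, on the plus strand of GRCm38, the assembly of mm10. Letters in capitals mark matches to motif words searched on both strands: the OCT-SOX word with up to 3 mismatches, OCT (ATGCAAAT), SOX (ACAATGG), KLF (GGGTGTGG) and TBX (AGGTGTGA) without mismatch, and ESRRB (TCAAGGTCA) with up to 1. The first 2 peaks are shown because they were the only members with an OCT-SOX match, and their values are set against each other below. In the *Esrrb* peak the match includes an exact OCT word, and all 3 mismatches fall in its SOX part, whereas in the *Tfcp2l1* peak the SOX part is exact and the mismatches fall in the gap (1) and in the OCT part (2). The next 2 flank *Prdm14*, and the last 2 are intronic peaks that were lower in both knockouts and hold none of the words.
*Esrrb* intron, chr12:86470961-86471160: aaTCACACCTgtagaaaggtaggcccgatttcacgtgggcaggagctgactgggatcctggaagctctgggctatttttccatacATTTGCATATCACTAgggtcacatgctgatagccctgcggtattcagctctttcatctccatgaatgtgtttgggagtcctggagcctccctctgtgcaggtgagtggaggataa
*Tfcp2l1* intron, chr1:118648042-118648241: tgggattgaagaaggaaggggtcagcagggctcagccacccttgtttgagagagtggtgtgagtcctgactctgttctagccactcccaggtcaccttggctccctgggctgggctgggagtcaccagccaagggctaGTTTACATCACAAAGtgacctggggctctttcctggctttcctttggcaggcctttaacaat
*Prdm14* downstream, chr1:13092520-13092719: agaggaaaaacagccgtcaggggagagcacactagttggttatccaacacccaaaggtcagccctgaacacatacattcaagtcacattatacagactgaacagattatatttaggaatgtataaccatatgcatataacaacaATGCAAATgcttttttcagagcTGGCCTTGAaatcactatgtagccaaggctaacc
*Prdm14* upstream, chr1:13128116-13128315: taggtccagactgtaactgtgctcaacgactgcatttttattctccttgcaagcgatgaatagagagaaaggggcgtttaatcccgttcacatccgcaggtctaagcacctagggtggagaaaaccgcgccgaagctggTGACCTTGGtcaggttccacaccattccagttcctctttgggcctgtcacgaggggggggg
*Tfcp2l1* intron, chr1:118642741-118642940: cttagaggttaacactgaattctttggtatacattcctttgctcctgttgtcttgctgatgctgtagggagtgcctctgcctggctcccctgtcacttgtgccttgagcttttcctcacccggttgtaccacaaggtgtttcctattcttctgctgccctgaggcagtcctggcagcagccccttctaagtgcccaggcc
*Esrrb* intron, chr12:86501725-86501924: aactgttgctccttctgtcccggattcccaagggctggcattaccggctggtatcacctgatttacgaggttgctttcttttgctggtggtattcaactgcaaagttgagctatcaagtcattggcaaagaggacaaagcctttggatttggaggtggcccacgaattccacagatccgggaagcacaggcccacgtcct
The capitals in the first *Esrrb* peak mark a TBX word and the OCT-SOX match that holds the OCT word. Those downstream of *Prdm14* mark an OCT word and an ESRRB word, and those upstream of *Prdm14* an ESRRB word. A match is a description of the letters and not a bound site.

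The *Esrrb* locus lost the most peaks without Oct4. In *Pou5f1*-KO late ICM 21 of the 81 peaks (25.9%) were called lower, against 10.1 percent of all peaks, and 2 (2.47%) were called higher, against 8.19 percent. 15 of the 21 lay in the *Esrrb* locus (15 of 37, 40.5%), 3 in *Tfcp2l1*, 3 in *Prdm14* (3 of 13, 23.1%) and none in *Tbx3*. Both increases were in *Tfcp2l1*. The median difference was -0.89 over the *Esrrb* peaks, of which 30 of 37 were below 0, and 0.01 over the *Tfcp2l1* peaks, of which 10 of 21 were below 0. In *Pou5f1*-KO early ICM 13 peaks were called lower (9 *Esrrb*, 1 *Tfcp2l1*, 3 *Prdm14*), against 5.43 percent of all peaks, and 2 higher, both in *Tfcp2l1*, against 2.753 percent. All 13 were among the 21 of late ICM. The libraries of these stages were separate, but the same estimate of spread at each peak served both calls. The overlap over all peaks was not counted. The change of the effect from early to late ICM was called at 0 members in limma (6 at an unadjusted p under 0.05), against 0 percent of all peaks.

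**Figure D1:**
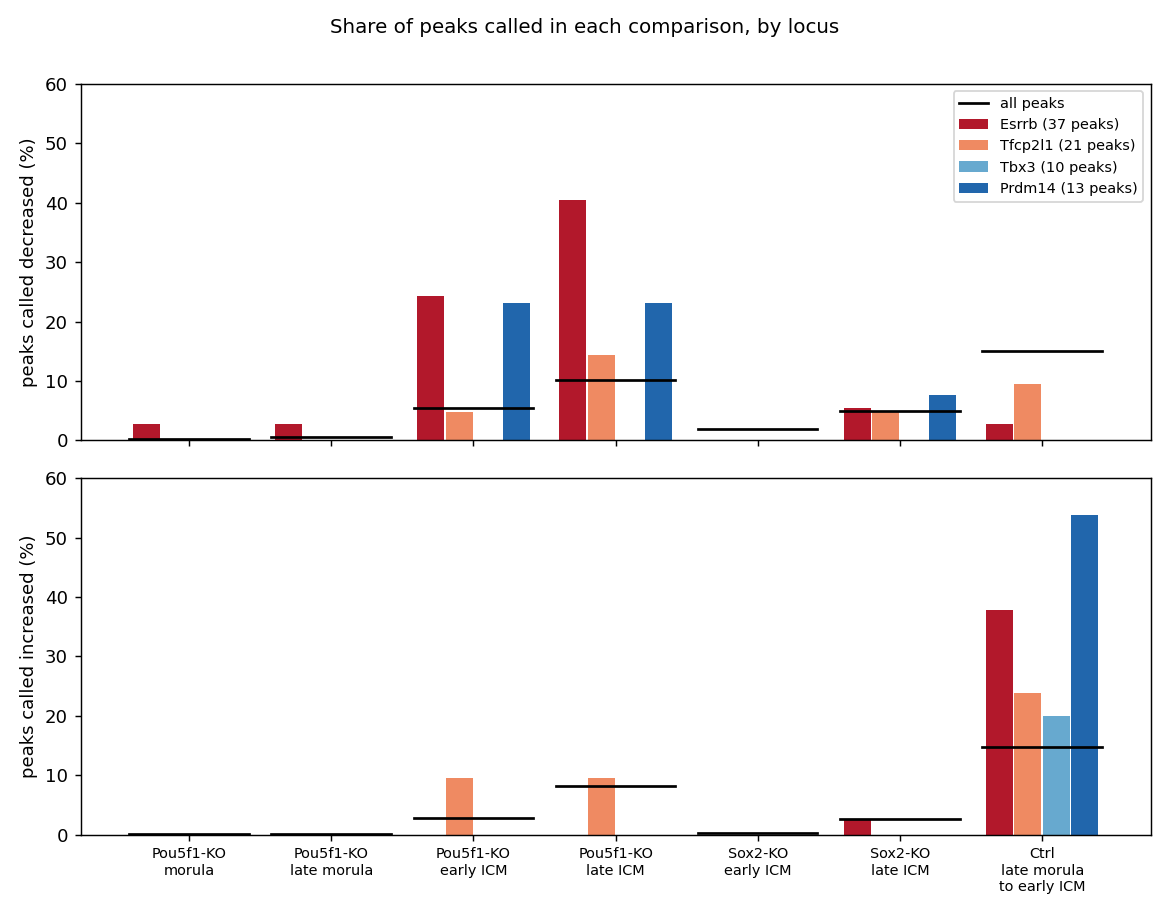
Share of the peaks of each locus called lower (upper panel) or higher (lower panel) at an adjusted p under 0.05, in percent, for 6 comparisons of KO with Ctrl and for the step from late morula to early ICM in Ctrl, with a black line for the share of all peaks. The *Esrrb* bar reaches 40.5% in *Pou5f1*-KO late ICM, and *Tbx3* has no bar in any KO comparison.

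Before the blastocyst the test called a single peak of the 4 loci, in *Esrrb*. In *Pou5f1*-KO morulae 1 member was called lower, against 0.185 percent of all peaks, and 0 higher (3 at an unadjusted p under 0.05), against 0.0518 percent. In late morulae the same peak was called lower, against 0.539 percent, and 0 were called higher (7 at an unadjusted p under 0.05), against 0.108 percent. The peak is the first intronic *Esrrb* peak printed above, 109943 bp into the gene, and holds an exact OCT word. Its OCT-SOX match had all 3 mismatches in the SOX part and was lost at 1 mismatch fewer. Its rlog was 5.24, 4.63 and 5.05 in Ctrl morulae and 3.86, 3.33 and 2.14 in *Pou5f1*-KO morulae, a difference of -1.86 ± 0.37 (SE, adjusted p = 0.0055). In late morulae it was 3.97, 3.92 and 4.26 in Ctrl and 2.17, 2.01 and 2.69 in KO (-1.76 ± 0.37, adjusted p = 0.0038, and 0.00034 with the replicate number as a block). At neither stage did the groups overlap. The morula call was lost without KO replicate 3 (-1.37) and when only the libraries compared were fitted (-1.86), and the late morula call without KO replicate 2 (-1.62). The same peak stayed lower in the ICM. In early ICM it was between 5.38 and 5.71 in Ctrl and between 3.08 and 4.35 in KO (-1.76, adjusted p = 2.6e-05), and in late ICM 5.47, 5.79, 5.41 and 5.08 against 3.70, 3.20, 3.95 and 3.01 (-1.98 ± 0.32, adjusted p = 9.3e-07). It was not called in *Sox2*-KO. There the late ICM values were 6.14, 5.79, 5.34 and 5.45, against 5.74, 5.56, 5.60 and 5.46 in its Ctrl (0.09 ± 0.32, adjusted p = 0.93), and the *Pou5f1*-KO effect was the more negative by 2.07 (SE 0.45, adjusted p = 0.0071).

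The remaining *Esrrb* decreases were called in the ICM and not in morulae. However, the change of the *Pou5f1*-KO effect from late morula to early ICM was itself called at 0 members in limma (16 at an unadjusted p under 0.05). With the replicate number as a block it was called at 1, and without KO early ICM replicate 1 at 2. The largest of these *Esrrb* decreases was at an intronic peak at chr12:86450999-86451198, 89981 bp from the first start. Late ICM values were 5.44, 4.40, 4.96 and 4.42 in Ctrl and 1.92, 2.07, 1.49 and 2.16 in *Pou5f1*-KO (-2.89 ± 0.41, adjusted p = 1.9e-08). Every KO library lay below every Ctrl library, with no overlap. In early ICM the difference was -1.44 (adjusted p = 0.012), and that call was lost without Ctrl replicate 2 (-1.23), KO replicate 3 (-1.16) or KO replicate 4 (-1.21). In *Sox2*-KO late ICM it was 4.29, 4.44, 4.16 and 4.27, against 4.97, 4.19, 3.65 and 3.70 (0.16, adjusted p = 0.9), and the effects of the knockouts differed by -3.05 (SE 0.58, adjusted p = 0.00096).

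A second intronic peak, at chr12:86501725-86501924, was lower in both knockouts. It was low in morulae, between 0.40 and 0.85 in Ctrl, and rose to 3.23, 3.37, 3.60 and 3.20 in Ctrl early ICM, a rise of 2.30 from late morula (adjusted p = 8.5e-05). In *Pou5f1*-KO early ICM it was 2.61, 1.46, 0.90 and 0.67 (-1.94, adjusted p = 0.00089). Its late ICM values were 5.28, 3.57, 3.60 and 3.55 in *Pou5f1* Ctrl and 0.74, 0.93, 1.61 and 1.40 in KO (-2.83 ± 0.43, adjusted p = 2.3e-07), and 3.96, 4.20, 3.45 and 3.65 in *Sox2* Ctrl against 1.52, 1.51, 1.47 and 1.20 in *Sox2*-KO (-2.39 ± 0.43, adjusted p = 2.3e-05). No KO library of late ICM reached a Ctrl library in either line. In the *Sox2* line the Ctrl value was still low in early ICM (2.76, 0.75, 2.14 and 1.65), and this peak made the only call among the 81 between early and late Ctrl ICM of that line (1.99, adjusted p = 0.0097), a comparison that shares its late Ctrl libraries with the KO comparison. The count of such rises was 0 without Ctrl early ICM replicate 2 or Ctrl late ICM replicate 1 or 2. The rise was called at 1 member against 0.474 percent of all peaks, and 0 members fell in limma (3 at an unadjusted p under 0.05), against 0.121 percent. In the *Pou5f1* line 0 members were called between early and late Ctrl ICM in limma (5 at an unadjusted p under 0.05), against 0.18 percent of all peaks for falls and 0.0787 percent for rises.

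**Figure D2:**
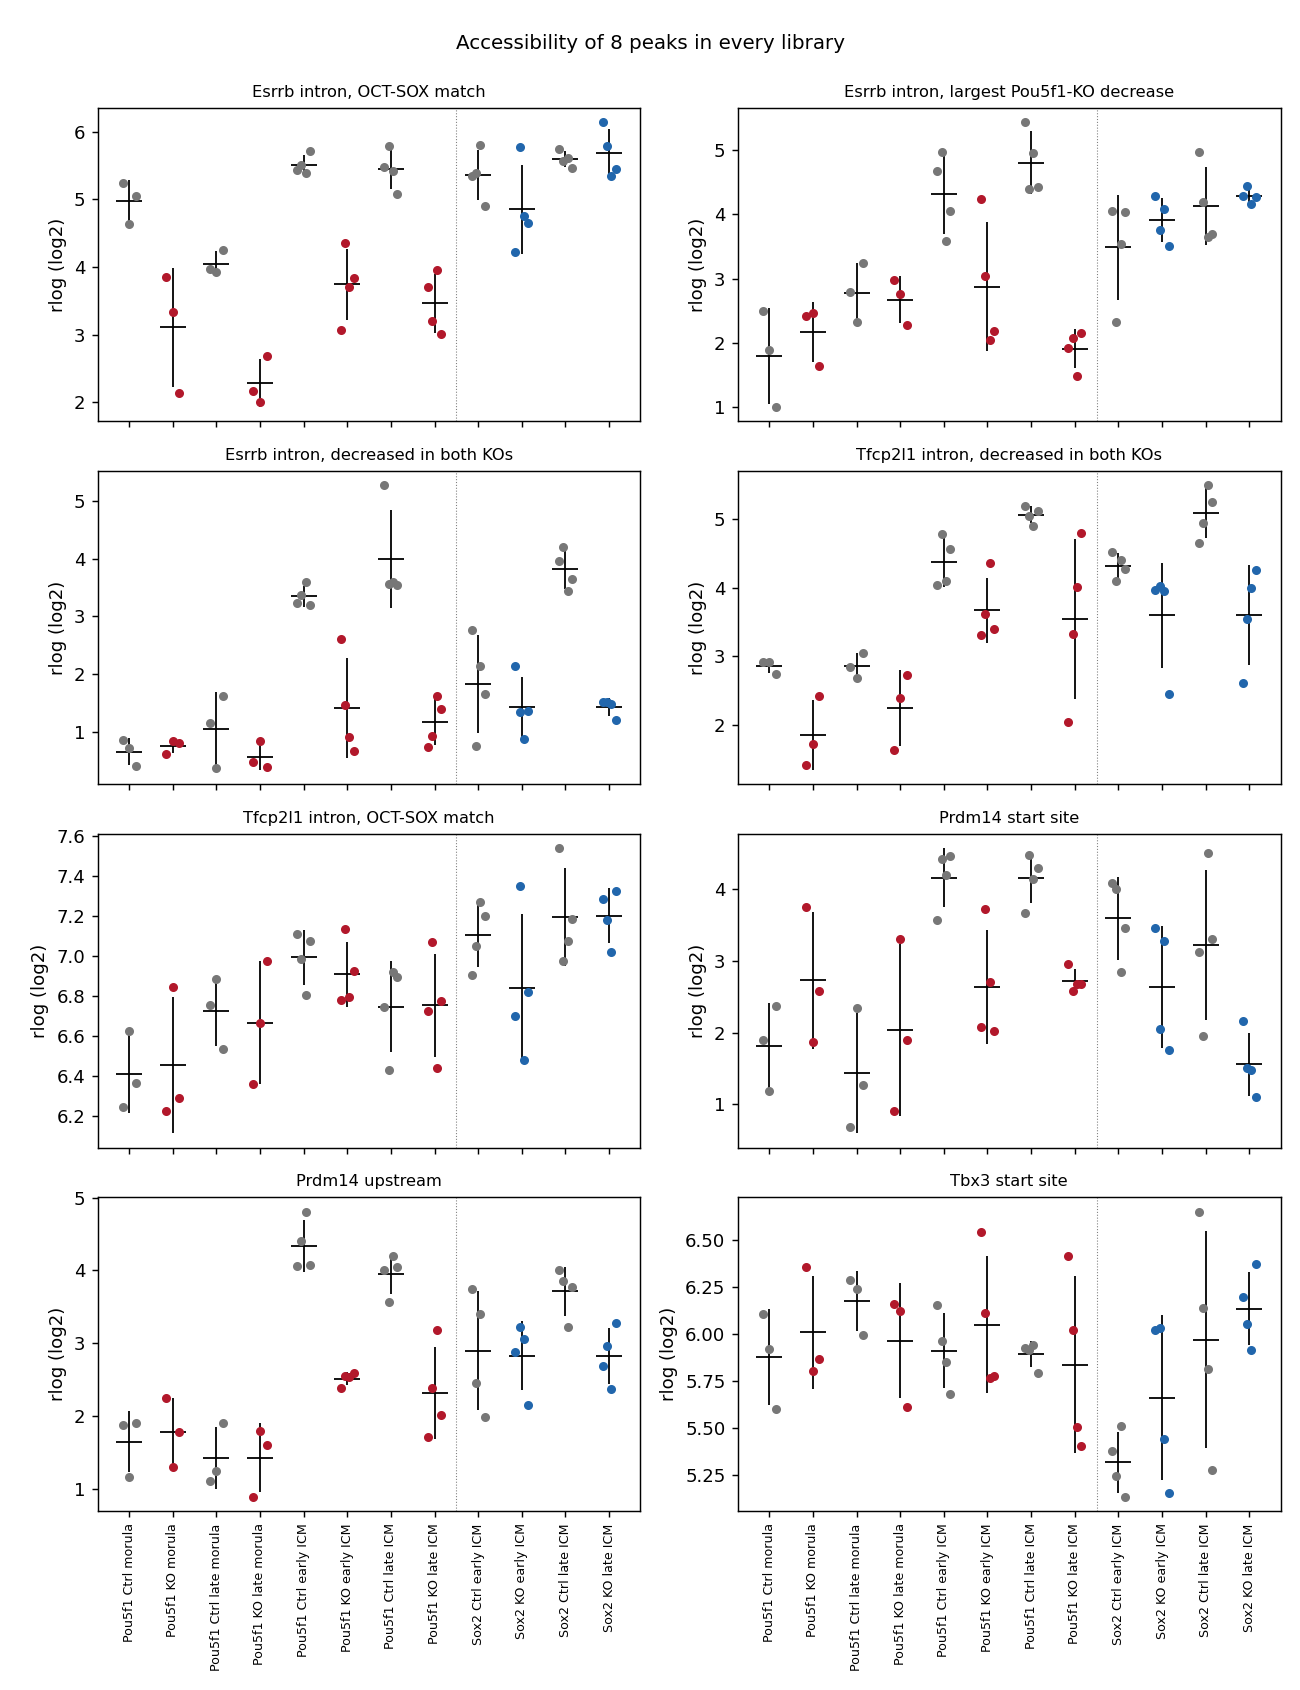
The rlog value (log2) of 8 peaks in every library, with a horizontal bar for the group mean and a vertical line for ± 1 SD. Ctrl is grey, *Pou5f1*-KO red and *Sox2*-KO blue, and each panel has its own vertical range. At the *Esrrb* peak whose OCT-SOX match is exact only in its OCT part, the *Pou5f1*-KO libraries lie below their Ctrl libraries at all 4 stages. The *Tfcp2l1* peak with an OCT-SOX match stays between 6.23 and 7.54 in every library.

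6 *Esrrb* peaks beyond those of the naming rule were singled out after their values were seen. The peak at chr12:86504389-86504588 overlaps the last annotated start site of the gene and holds an exact ESRRB word. At the late ICM stage it was 4.39, 4.11, 4.02 and 4.29 in Ctrl and 2.24, 0.95, 1.72 and 1.82 in *Pou5f1*-KO (-2.52 ± 0.41, adjusted p = 1.2e-06), and in *Sox2*-KO it differed by -0.78 (adjusted p = 0.3). By contrast the strongest start-site peak, chr12:86470006-86470205, in a coding exon at an internal start, was 4.92, 4.86, 5.06 and 4.80 in Ctrl and 4.22, 4.52, 4.02 and 3.77 in *Pou5f1*-KO. The groups did not overlap, but the difference of -0.78 missed the threshold (adjusted p = 0.068). The intronic peak chr12:86464478-86464677 was lower in both knockouts, by 2.24 in *Pou5f1*-KO late ICM (adjusted p = 2.7e-05) and by 1.52 in *Sox2*-KO late ICM (adjusted p = 0.011), where the call was lost without KO replicate 4 (-1.34). It was 4.26, 3.97, 3.71 and 3.95 in *Pou5f1* Ctrl and 2.21, 1.03, 1.89 and 1.80 in KO.

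Other *Esrrb* peaks were lower in *Pou5f1*-KO and were not called in *Sox2*-KO. At chr12:86463108-86463307 the late ICM values were 4.36, 4.78, 4.33 and 4.55 in Ctrl and 1.82, 2.01, 1.71 and 2.09 in *Pou5f1*-KO (-2.60, adjusted p = 2.4e-07), and the *Sox2*-KO difference was -0.26 (adjusted p = 0.81). The effects differed by -2.33 (adjusted p = 0.017), a call lost without *Sox2*-KO replicate 2 (-2.20). The peak chr12:86455164-86455363 was open in morulae already, between 5.00 and 5.80 in Ctrl, and fell by 1.92 in *Pou5f1*-KO early ICM (adjusted p = 2.1e-06) and by 2.02 in late ICM (adjusted p = 2.7e-07). There the early ICM effects of the knockouts differed (-1.99, adjusted p = 0.009). It was 1 such member, against 0.68 percent of all peaks, where the replicate block gave 3, and the fits without *Pou5f1*-KO replicate 1 or *Sox2*-KO replicate 4 gave 2. At chr12:86466218-86466417, with a KLF word, early ICM values were 4.93, 4.87, 5.52 and 5.31 in Ctrl and 4.40, 5.33, 4.98 and 4.41 in *Pou5f1*-KO (-0.38, adjusted p = 0.62). In late ICM they were 5.49, 5.73, 5.85 and 5.54 against 2.84, 4.25, 4.34 and 4.30 (-1.72, adjusted p = 0.00011). The groups overlapped in early ICM and not in late ICM, and the effect differed from that of *Sox2*-KO by -2.11 (adjusted p = 0.014), a call lost without *Pou5f1*-KO replicate 1 (-1.74). In late ICM the effects of the knockouts differed at 5 members, 4 in *Esrrb* and 1 in *Prdm14*, against 0.905 percent of all peaks, and at all 5 the *Pou5f1*-KO effect was the more negative. Not every strong *Esrrb* peak moved. The highest of the locus, chr12:86480716-86480915, with a mean of 5.23 over all libraries, differed by 0.22 in *Pou5f1*-KO (adjusted p = 0.67) and by 0.26 in *Sox2*-KO late ICM (adjusted p = 0.72).

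*Sox2*-KO had fewer called peaks among the 81 than *Pou5f1*-KO. In early ICM 0 were called lower in limma (5 at an unadjusted p under 0.05), against 1.91 percent of all peaks, and 0 higher (2 at an unadjusted p under 0.05), against 0.238 percent. In late ICM 4 (4.94%) were called lower, against 4.88 percent of all peaks, and 1 (1.23%) higher, against 2.71 percent, so the share of decreases was close to that of all peaks. Increases numbered 5 when only the libraries compared were fitted, decreases 2 when peaks below the median rlog were left out, and the replicate block gave 8 decreases and 4 increases. The 4 decreases, 2 in *Esrrb*, 1 in *Tfcp2l1* and 1 in *Prdm14*, were all among the 21 of *Pou5f1*-KO late ICM, an overlap not counted over all peaks. Over the 15 *Esrrb* peaks lower in *Pou5f1*-KO late ICM, the median difference in *Sox2*-KO late ICM was -0.58, with a range from -2.39 to 0.38. The increase was at the *Esrrb* peak chr12:86453973-86454172, at 3.52, 2.54, 2.54 and 1.02 in Ctrl and 3.7497, 3.84, 3.17 and 4.39 in KO (1.38, adjusted p = 0.034), where the groups overlapped. Leaving out any of 6 of the 8 libraries compared ended that call: Ctrl replicate 2 (1.42), 3 (1.42) or 4 (0.92), or KO replicate 1 (1.39), 2 (1.36) or 4 (1.18). The change of the *Sox2*-KO effect from early to late ICM was called at 0 members in limma (2 at an unadjusted p under 0.05), against 0.019 percent of all peaks. Over the peaks of 9 trophectoderm genes the mean rlog was between 3.24 and 3.37 in *Sox2* Ctrl and between 3.59 and 3.77 in *Sox2*-KO late ICM. Of their 95 peaks 6 (6.32%) were called higher, in *Cdx2*, *Gata3*, *Elf5*, *Krt8* and *Krt18*, and 1 (1.05%) lower, in *Tfap2a*, and *Eomes*, *Hand1* and *Gata2* had no called peak. For 8 primitive endoderm genes the ranges were 2.88 to 2.98 and 2.93 to 3.22, and 8 of their 81 peaks (9.88%) were called higher and 2 (2.47%) lower. Of all peaks 2.71 percent were higher and 4.88 percent lower. In *Pou5f1* late ICM the trophectoderm ranges overlapped, 3.30 to 3.51 in Ctrl and 3.32 to 3.69 in KO, with 11 of the 95 peaks (11.6%) called higher and 6 (6.32%) lower. So did those of primitive endoderm, 2.83 to 2.94 and 2.80 to 2.95, with 13 of the 81 peaks (16%) higher and 12 (14.8%) lower. Of all peaks 8.19 percent were higher and 10.1 percent lower. The part of other cell types in the results was not tested.

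At *Prdm14* the start site and the nearest upstream peak opened at the ICM stage and were lower without Oct4. The start-site peak, chr1:13127093-13127292 in a non-coding exon, rose by 2.73 from late morula to early ICM in Ctrl (adjusted p = 9.3e-06). In early ICM it was 3.58, 4.42, 4.19 and 4.46 in Ctrl and 2.08, 3.73, 2.71 and 2.02 in *Pou5f1*-KO (-1.53, adjusted p = 0.019). Late ICM libraries had 3.67, 4.48, 4.14 and 4.30 against 2.96, 2.58, 2.68 and 2.67 (-1.43, adjusted p = 0.017). The groups overlapped in early ICM and not in late ICM. *Sox2*-KO late ICM libraries had 2.15, 1.51, 1.47 and 1.10, against 3.12, 1.95, 4.505 and 3.31 in Ctrl (-1.66 ± 0.45, adjusted p = 0.0093), where Ctrl replicate 2 lay below KO replicate 1. These calls were lost without single libraries: that of early ICM was lost without Ctrl replicate 2 (-1.44) or 4 (-1.43) or KO replicate 1 (-1.34) or 4 (-1.32), that of *Pou5f1*-KO late ICM without Ctrl replicate 2 (-1.31), and that of *Sox2*-KO without Ctrl replicate 3 (-1.24). The upstream peak at chr1:13128116-13128315, 953 bp from the gene, kept its calls in *Pou5f1*-KO under every alternative run. In early ICM it was 4.06, 4.40, 4.81 and 4.08 in Ctrl and 2.38, 2.54, 2.53 and 2.59 in *Pou5f1*-KO (-1.82, adjusted p = 0.00085), and in late ICM 4.01, 3.56, 4.19 and 4.04 against 1.71, 2.38, 3.18 and 2.01 (-1.63, adjusted p = 0.0017). It had the largest rise of the locus from late morula to early ICM (2.92, adjusted p = 1.8e-07), and in *Sox2*-KO late ICM it differed by -0.89 (adjusted p = 0.2). Of the 3 peaks farther upstream none was called in *Pou5f1*-KO ICMs. One of them, chr1:13132161-13132360, chosen after its values were seen, rose by 2.38 from late morula to early ICM (adjusted p = 9.5e-08) and differed by -0.58 in early ICM (adjusted p = 0.31) and by -0.72 in late ICM (adjusted p = 0.11).

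The third *Prdm14* decrease was at the OCT and ESRRB peak 20738 bp past the end of the gene. The late ICM values were 4.01, 3.40, 4.22 and 3.749 in Ctrl and 1.70, 1.26, 2.06 and 0.86 in *Pou5f1*-KO (-2.38 ± 0.42, adjusted p = 6.2e-06). In *Sox2*-KO late ICM it was 3.61, 4.16, 2.67 and 3.65, against 3.10, 2.89, 4.19 and 3.87 in Ctrl (0.01 ± 0.42). The *Pou5f1* groups were apart and the *Sox2* groups overlapped, and the effects differed by -2.38 (adjusted p = 0.022). That call was lost without Ctrl replicate 3 (-2.26) or KO replicate 4 (-2.18) of the *Pou5f1* line, or without Ctrl replicate 1 (-2.25) or 2 (-2.18) or KO replicate 2 (-2.17) of the *Sox2* line. In early ICM the difference was -1.34 (adjusted p = 0.027), lost without Ctrl replicate 2 (-1.24) or 3 (-1.24) or KO replicate 1 (-1.34) or 4 (-1.19). The highest peak of the locus, chr1:13108650-13108849, had a mean of 6.08 and differed by 0.04 in *Pou5f1*-KO (adjusted p = 0.93) and by -0.37 in *Sox2*-KO late ICM (adjusted p = 0.42).

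At *Tfcp2l1* 3 of 21 peaks (14.3%) were lower and 2 (9.52%) higher in *Pou5f1*-KO late ICM, shares near the 10.1 and 8.19 percent of all peaks, and in early ICM 1 (4.76%) was lower, against 5.43 percent, and 2 (9.52%) higher, against 2.753 percent. The largest decrease was at chr1:118620265-118620464, upstream of the gene. Its values in late ICM were 3.58, 2.39, 3.42 and 3.22 in Ctrl and 1.43, 1.44, 0.76 and 1.08 in *Pou5f1*-KO (-1.98 ± 0.40, adjusted p = 9.6e-05). In early ICM it differed by -1.13 (adjusted p = 0.064, and 0.03 with the replicate number as a block). The block also brought the *Esrrb* peak chr12:86508389-86508588 below the threshold in early ICM (-1.14, adjusted p = 0.067 without and 0.044 with it). The intronic peak at chr1:118642741-118642940 was lower in both knockouts. Values in late ICM were 5.20, 5.05, 4.90 and 5.11 in *Pou5f1* Ctrl and 2.04, 3.32, 4.02 and 4.80 in KO (-1.52, adjusted p = 0.0023), and 4.66, 4.95, 5.50 and 5.25 in *Sox2* Ctrl and 2.61, 3.54, 3.996 and 4.26 in KO (-1.49, adjusted p = 0.006). The groups did not overlap in either line, but KO replicate 1 was the lowest in both, and without it the calls were lost (-1.02 in the *Pou5f1* line, -1.16 in the *Sox2* line). The peak chr1:118663064-118663263 was lower in *Pou5f1*-KO early ICM (-1.92, adjusted p = 0.00067), at 3.50, 3.74, 3.58 and 3.28 in Ctrl and 2.34, 0.90, 2.11 and 1.07 in KO. In late ICM the difference was -1.17 (adjusted p = 0.039), and without any library compared other than Ctrl replicate 1 it was no longer called, with values between -1.20 and -0.98. Quantile normalization lost that call too (-1.08).

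3 *Tfcp2l1* peaks were called higher in *Pou5f1*-KO ICMs, of which the second and the third below, like chr1:118663064, were chosen after their values were seen. The peak chr1:118611969-118612168, which lies in *Clasp1* and upstream of *Tfcp2l1*, closed from late morula to early ICM in Ctrl (-2.03, adjusted p = 0.00035) and in KO (-1.50, adjusted p = 0.013), and in early ICM KO differed from Ctrl by 0.31 (adjusted p = 0.76). In late ICM its values were 1.63, 3.40, 1.81 and 1.63 in Ctrl and 4.71, 3.43, 3.34 and 3.53 in KO (1.64, adjusted p = 0.0026), where Ctrl replicate 2 overlapped the KO libraries. The intronic peak chr1:118649693-118649892 fell over that step in Ctrl (-1.18, adjusted p = 0.00033) and was not called in KO (-0.44, adjusted p = 0.24), and the difference between these changes was not called (0.74, adjusted p = 0.49). Its values in early ICM were 5.74, 5.26, 4.64 and 5.38 in Ctrl and 6.24, 6.25, 6.37 and 6.62 in KO (1.11, adjusted p = 0.00073), and 6.80, 6.81 and 6.82 in KO late morulae. In late ICM it was higher by 1.07 (adjusted p = 0.00057). The third, chr1:118689906-118690105, was higher by 0.90 in early ICM (adjusted p = 0.039) and by 0.43 in late ICM, where it was not called (adjusted p = 0.34). The early ICM call was lost without any of 6 of the 8 libraries compared: Ctrl replicate 1 (0.69), 2 (0.86) or 3 (0.85), or KO replicate 2 (0.84), 3 (0.96) or 4 (0.85). It was also lost when only the libraries compared were fitted, without the trended prior, and when a difference of at least 1 was asked for. The *Tfcp2l1* peak with the OCT-SOX match was the strongest of the 81, with a mean of 6.86, and differed by 0.01 ± 0.18 in late ICM of either knockout (adjusted p = 0.99 in both). The start-site peak, chr1:118627804-118628003, had a mean of 5.14 and differed by 0.05 in *Pou5f1*-KO (adjusted p = 0.93) and 0.19 in *Sox2*-KO late ICM (adjusted p = 0.8).

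**Figure D3:**
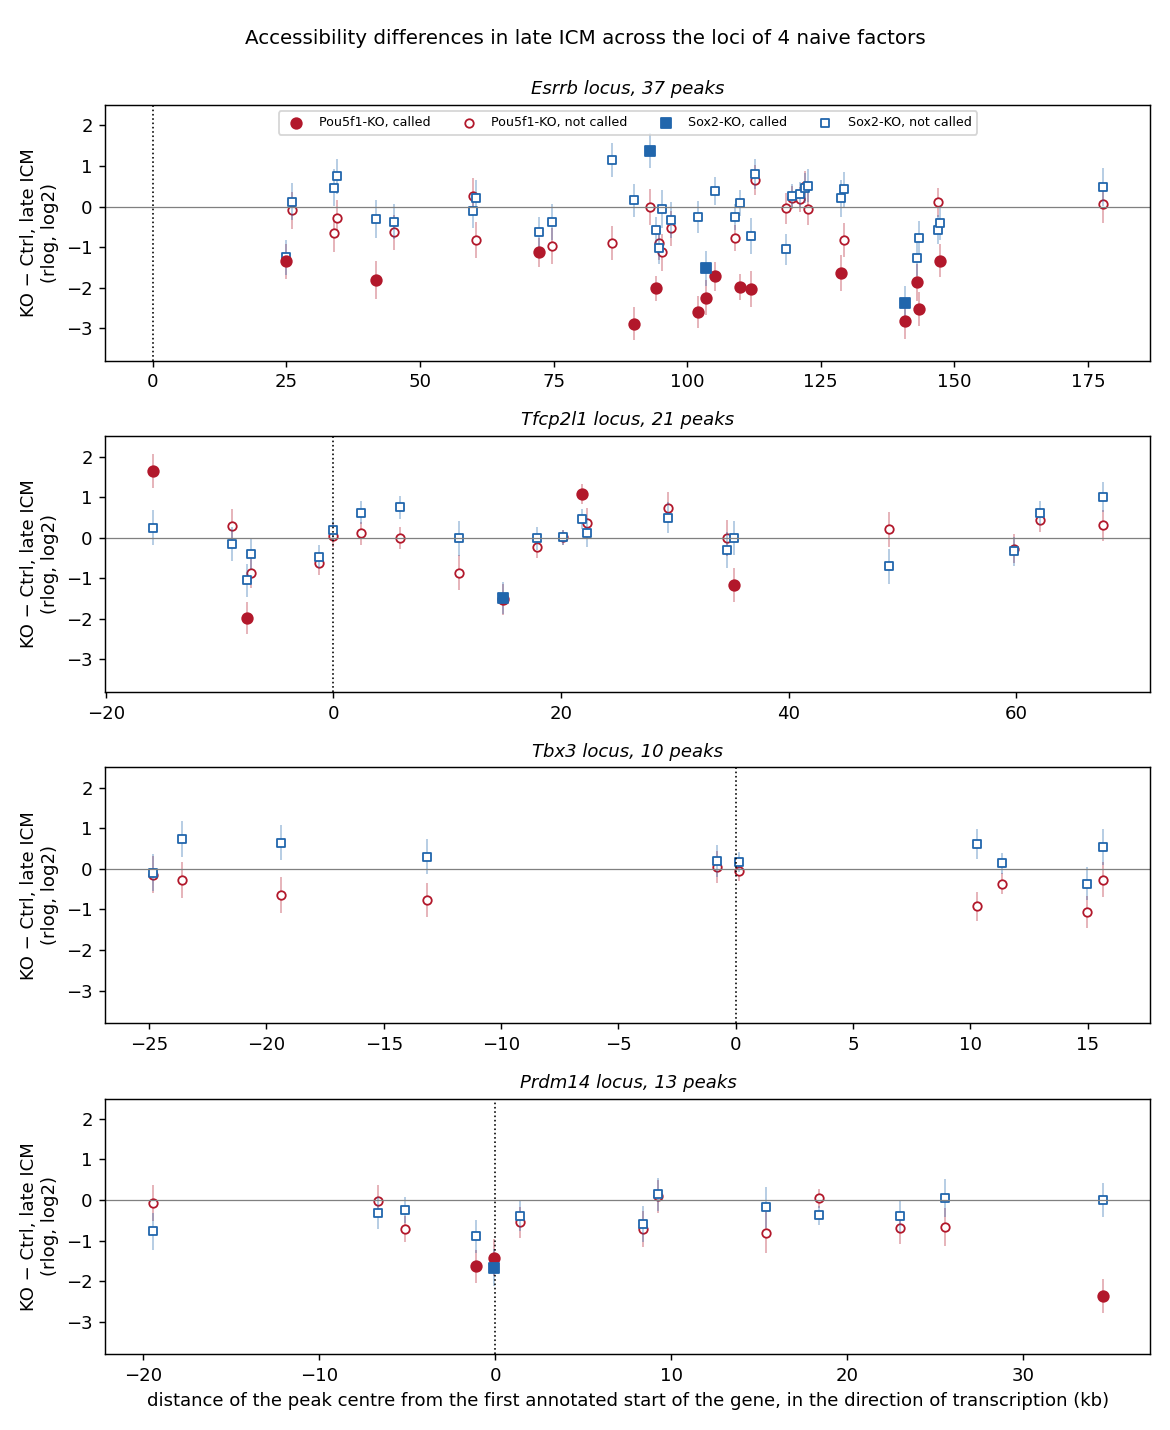
KO minus Ctrl in late ICM (rlog, log2) for every peak, against the distance of its centre from the first annotated start of the gene in kb, with vertical lines for ± 1 SE. Red circles are *Pou5f1*-KO, blue squares *Sox2*-KO, and filled symbols passed an adjusted p under 0.05: 15 of 37 *Esrrb* peaks are filled red and below 0, and no *Tbx3* peak is filled.

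No *Tbx3* peak passed the test in any KO comparison. In *Pou5f1*-KO late ICM 0 of 10 were called in limma (2 at an unadjusted p under 0.05), although 9 of 10 differences were below 0, between -1.06 and 0.04, with a median of -0.32. In *Sox2*-KO late ICM 2 of 10 were below 0, and the median was 0.25 (0 at an unadjusted p under 0.05). The peak nearest the threshold, chr5:119685531-119685730 past the end of the gene, was 3.72, 4.38, 4.98 and 5.18 in Ctrl and 2.92, 3.77, 3.14 and 4.17 in *Pou5f1*-KO late ICM (-1.06 ± 0.41, adjusted p = 0.053), and the groups overlapped. It had the largest rise of the locus from late morula to early ICM in Ctrl (1.89, adjusted p = 0.00051). The start-site peak was also the highest of the locus, chr5:119670712-119670911, with a mean of 5.89, and differed by -0.06 in *Pou5f1*-KO (adjusted p = 0.91) and 0.17 in *Sox2*-KO late ICM (adjusted p = 0.8).

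Accessibility at the loci rose more often than it fell between late morula and early ICM. In Ctrl 28 of 81 peaks (34.6%) rose over that step, against 14.7 percent of all peaks, and 3 fell, against 15 percent. The rises were 14 of 37 in *Esrrb* (37.8%), 5 of 21 in *Tfcp2l1*, 2 of 10 in *Tbx3* and 7 of 13 in *Prdm14* (53.8%). The largest rise in the *Tfcp2l1* locus was past the end of the gene at chr1:118695486-118695685, with an exact ESRRB word, from 2.43, 3.94 and 1.94 to 4.16, 4.82, 5.19 and 4.76 (1.96, adjusted p = 9.1e-05). It was not called in either knockout, with differences of 0.30 in *Pou5f1*-KO and 1.00 in *Sox2*-KO late ICM. 14 of the 21 peaks lower in *Pou5f1*-KO late ICM (66.7%) were among the 28 (50%), a comparison with no library in common. Over all peaks 52.4 percent of those lower in *Pou5f1*-KO late ICM had risen over the step, and 36.1 percent of those that rose were lower. They were 10 of 15 in *Esrrb*, 1 of 3 in *Tfcp2l1* and 3 of 3 in *Prdm14*. In *Pou5f1*-KO embryos 12 members rose over the same step, against 8.33 percent of all peaks, and 2 fell, against 10.2 percent, and 10 of the 12 were among the 28 of Ctrl. The count of rises in *Pou5f1*-KO fell to 5 without KO late morula replicate 1, and the count of falls ranged from 0 without KO late morula replicate 2 to 7 without KO early ICM replicate 1. The *Esrrb* peak at chr12:86466218 rose in both, by 2.92 in Ctrl and 3.41 in KO. The change of the *Pou5f1*-KO effect over the step, called at 0 members in limma (16 at an unadjusted p under 0.05), was called at 0.346 percent of all peaks. With the replicate number as a block 1 member was called. From morula to late morula in Ctrl 2 members fell, against 2.79 percent, and 5 rose, against 3.65 percent, and the rises numbered 1 without Ctrl late morula replicate 1, 2 without Ctrl morula replicate 1 or late morula replicate 2, and 3 without Ctrl morula replicate 2 or late morula replicate 3. The falls numbered 1 without replicate 1 of either group and 4 without Ctrl morula replicate 2, 10 with quantile normalization, 5 when only the libraries compared were fitted and 1 when peaks below the median rlog were left out, and the rises 3 without the trended prior. Both falls in the fit of all libraries were in *Esrrb*, by 2.70 and 1.44. The Ctrl groups of the *Pou5f1* and *Sox2* lines differed at 0 members in early ICM (12 at an unadjusted p under 0.05), against 0.899 percent of all peaks, and at 0 in late ICM (13 at an unadjusted p under 0.05), against 1.43 percent, both in limma. Of the 12, 11 were higher in the *Pou5f1* line, and of the 13, 6 were. Over the *Esrrb* peaks the early ICM difference between lines had a median of 0.34, with 7 of 37 below 0. In early ICM Ctrl the *Esrrb* locus mean was between 3.38 and 3.57 in the *Pou5f1* line. In the *Sox2* line it was between 2.84 and 3.32, with no overlap.

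**Figure D4:**
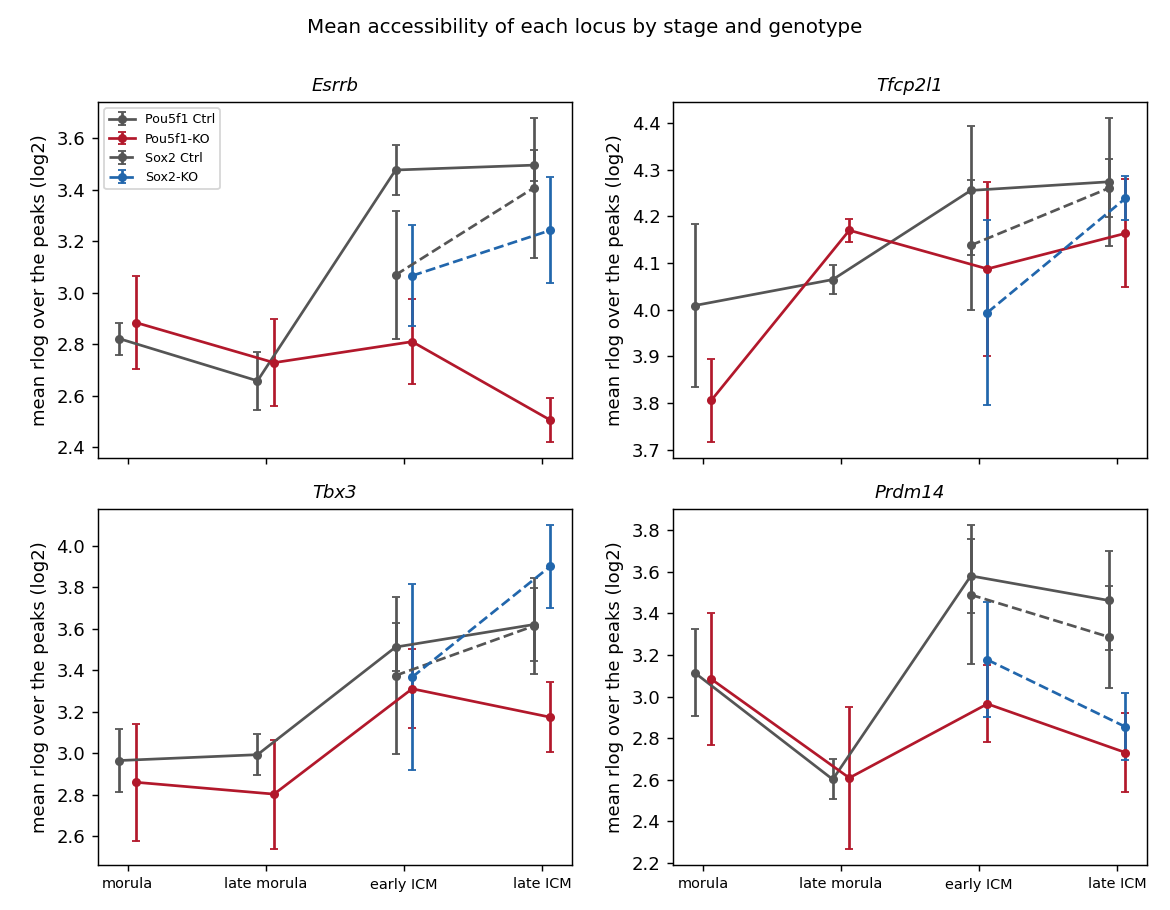
Mean rlog (log2) over the peaks of each locus by stage and genotype, with points for group means and bars for ± 1 SD over libraries. Grey is Ctrl, red *Pou5f1*-KO and blue *Sox2*-KO, solid lines join groups of the *Pou5f1* line and dashed lines those of the *Sox2* line: in *Esrrb* Ctrl rises to 3.50 in late ICM, while *Pou5f1*-KO ends at 2.51.

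As a mean over its peaks, the *Esrrb* locus was lowest in *Pou5f1*-KO late ICM (2.51 ± 0.08, SD, n = 4), followed by Ctrl late morula (2.66 ± 0.11, n = 3), *Pou5f1*-KO late morula (2.73 ± 0.17), *Pou5f1*-KO early ICM (2.81 ± 0.17), Ctrl morula (2.82 ± 0.06) and *Pou5f1*-KO morula (2.88 ± 0.18). Above these stood *Sox2*-KO early ICM (3.07 ± 0.20), *Sox2* Ctrl early ICM (3.07 ± 0.25), *Sox2*-KO late ICM (3.24 ± 0.21), *Sox2* Ctrl late ICM (3.41 ± 0.27), *Pou5f1* Ctrl early ICM (3.48 ± 0.10) and *Pou5f1* Ctrl late ICM (3.50 ± 0.06). *Pou5f1*-KO early ICM thus stood among the morula groups and *Pou5f1*-KO late ICM below them, and both below every other ICM group. *Prdm14* ran from 2.60 ± 0.10 in Ctrl late morula to 3.58 ± 0.18 in *Pou5f1* Ctrl early ICM, with *Pou5f1*-KO late ICM at 2.73 ± 0.19 and *Sox2*-KO late ICM at 2.85 ± 0.16. *Tbx3* ran from 2.80 ± 0.26 in *Pou5f1*-KO late morula to 3.90 ± 0.20 in *Sox2*-KO late ICM, with *Pou5f1*-KO late ICM at 3.17 ± 0.17. *Tfcp2l1* covered the narrowest range, from 3.81 ± 0.09 in *Pou5f1*-KO morula to 4.27 ± 0.14 in *Pou5f1* Ctrl late ICM. In all 4 loci every pair of neighbours in the order overlapped in its libraries.

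Of the 21 peaks lower in *Pou5f1*-KO late ICM 1 (4.76%) held an OCT-SOX match, against 3.44 percent of all peaks. An OCT word was in 2 (9.52%), against 2.39 percent, and 1 of these words is part of the OCT-SOX match. Of the other 60 peaks 1 held an OCT-SOX match and 0 an OCT word. 8 of 21 (38.1%) held an ESRRB word, against 11 of 60 (18.3%) of the others and 15.8 percent of all peaks. Over all 81 members the ESRRB word was in 19 (23.5%), in 6 of them exactly (7.41%, against 3.39 percent of all peaks). The share of members was 2.47% for OCT-SOX (3.44 percent of all peaks), 2.47% for OCT (2.39 percent), 3.7% for SOX (4 percent), 7.41% for KLF (8.86 percent) and 2.47% for TBX (2.62 percent). A TFCP2L1 word (CCAG, 4 bases, AACCAG, up to 1 mismatch) was in 1.23% (2.88 percent), a STAT word (TTCC, 1 base, GGAA) in 1.23% (0.986 percent) and a PRDM14 word (GGTCTCTAA, up to 1 mismatch) in 0 of 81 (4.2 percent). The 21 peaks were 16 intronic, 2 in non-coding exons, 2 upstream and 1 downstream, and their median rlog in Ctrl morula was 2.43, against 3.43 for the other 60.

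Other genes of the naive network were read over the peaks in their bodies and within 10 kb, for 19 of a list of 20 genes that had a peak (220 peaks). The list includes the targeted genes, some of whose peaks also served to check the labels. In late ICM *Sox2* had 4 of 6 peaks lower in *Pou5f1*-KO and 2 in *Sox2*-KO. *Pou5f1* had 2 of 10 lower in *Pou5f1*-KO and 0 in *Sox2*-KO. 53 of the 220 (24.1%) were lower in *Pou5f1*-KO late ICM, in 13 genes, against 10.1 percent of all peaks, and 7 (3.18%) higher, against 8.19 percent. In *Sox2*-KO late ICM 31 (14.1%) were lower, against 4.88 percent of all peaks, and 7 (3.18%) higher, against 2.71 percent. *Fgf4*, a growth factor gene downstream of Oct4 and Sox2 in stem cells, had 7 of 14 peaks lower in *Pou5f1*-KO and 9 in *Sox2*-KO. *Lifr*, a receptor subunit for LIF, had 10 of 19 and 6 of 19. *Etv5*, an ETS factor, had 6 of 20 in *Pou5f1*-KO and 0 in *Sox2*-KO, and *Nanog* 4 of 11 and 1 of 11. *Klf2*, *Klf4*, *Zfp42*, *Sall4*, *Gbx2* and *Stat3* had none lower in either within that window, and enhancers farther away were not read. Peaks called higher numbered 2 in each knockout at *Stat3*, and 1 in *Pou5f1*-KO and 2 in *Sox2*-KO at *Sall4*. *Klf2* and *Zfp42* had 1 higher each in *Sox2*-KO. From late morula to early ICM in Ctrl 90 of the 220 (40.9%) rose, against 14.7 percent of all peaks, and 8 (3.64%) fell, against 15 percent.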

How the data were processed

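ATAC-seq was measured in 44 libraries of mouse morulae and ICMs in 12 groups, taken from the sample labels. The authors deposited rlog values, on a log2 scale, for 152393 peaks, made with DESeq2 from Tn5 insertion counts in 200 bp windows at MACS2 peaks, after Bowtie2 alignment to mm10 (Picard, bedtools and deepTools are also named in the processing notes). Depth is not recoverable from them. A deposited table of group means of these log2 values was used as a check only (largest difference 4.3e-08).

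Differences were fitted with limma 3.58.1 (R 4.3.3) on the values of all libraries with 12 group means (32 residual degrees of freedom, median residual SD 0.589), a trended prior and Benjamini-Hochberg adjustment over all peaks, two-sided. The fit was tested on simulated data. Replicates are pools, and p-values measure the spread between pools. Sequences and annotation came from GRCm38 and GENCODE vM21 (141767 transcripts). The authors' start coordinates, counted from 0, were raised by 1. Python 3.11.15, pandas 2.3.3 and pysam 0.24.0 were used.

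The loci, gene lists and motif words were chosen with earlier results of these data known. 18 peaks were named by rule, per locus: the start-site peak, the 2 largest called *Pou5f1*-KO late ICM decreases, the largest called *Sox2*-KO late ICM decrease, *Pou5f1*-KO late ICM increase and Ctrl rise from late morula to early ICM, the highest mean, OCT-SOX peaks called in late ICM, and peaks called in morulae. 10 more were chosen after their values were seen. Same-numbered Ctrl and KO libraries were taken as paired where the deviations of every pair correlated above 0.1. That held in *Pou5f1* late morula (0.109 to 0.192) and early ICM (0.121 to 0.162). The other comparisons missed the limit in at least 1 pair, but some of their pairs passed it. *Sox2* early ICM ran from 0.0859 to 0.293 and *Pou5f1* morula from 0.0479 to 0.153. The main counts come from the fit without the block. Alternatives were fitting only the libraries compared, no trend, quantile normalization, peaks at or above the median rlog, a difference of at least 1, a replicate block, 1 mismatch fewer in the words, and leaving out each library.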

Additional observations from a re-analysis of the deposited data

Results flagged for a closer look

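Among the peaks named above, 224 groups of 4 libraries were looked at for a library far from the other 3, and 19 had such a library, where chance flags about 1 in 20 groups. At the *Esrrb* peak chr12:86501725 *Pou5f1* Ctrl late ICM replicate 1 was high (5.28, the others 3.55 to 3.60) and *Sox2*-KO late ICM replicate 4 low (1.20). At the *Tfcp2l1* peak chr1:118611969 *Pou5f1* Ctrl late ICM replicate 2 was high (3.40), as was KO late ICM replicate 1 (4.71), and *Sox2* Ctrl early ICM replicate 4 was high (2.89). At the *Esrrb* peak chr12:86466218 *Pou5f1*-KO late ICM replicate 1 was low (2.84, the others from 4.25), and *Sox2*-KO late ICM replicate 4 was low (5.58). At chr12:86455164 *Pou5f1* Ctrl late ICM replicate 3 was low (5.04, the others from 5.19), and at chr12:86508389 *Pou5f1*-KO early ICM replicate 2 was high (2.54, the others 1.60 to 1.66). At chr12:86470006 *Pou5f1* Ctrl early ICM replicate 1 was low (4.53) and *Sox2*-KO early ICM replicate 2 low (4.53). At the *Tfcp2l1* peak chr1:118642741 *Sox2*-KO early ICM replicate 4 was low (2.44), and at chr1:118689906 *Sox2* Ctrl early ICM replicate 2 (4.29). At chr1:118695486 *Sox2* Ctrl early ICM replicate 4 was low (3.08) and *Sox2*-KO late ICM replicate 2 high (4.84), and at the start site chr1:118627804 *Sox2* Ctrl late ICM replicate 3 was high (5.10). At the *Prdm14* peak chr1:13108650 *Pou5f1* Ctrl late ICM replicate 3 was high (6.42) and *Sox2* Ctrl late ICM replicate 2 low (5.98), and at chr1:13132161 *Pou5f1* Ctrl late ICM replicate 3 was low (4.83, the others from 5.32).

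6 peaks had *Pou5f1*-KO and *Sox2*-KO effects that differed in limma, all with the *Pou5f1*-KO effect the more negative. In early ICM the *Esrrb* peak chr12:86455164 differed by -1.99 (SE 0.44, adjusted p = 0.009). In late ICM the *Esrrb* peaks chr12:86450999, chr12:86463108, chr12:86466218 and chr12:86470961 differed by -3.05, -2.33, -2.11 and -2.07, and the *Prdm14* peak chr1:13092520 by -2.38.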

How the results depend on the processing

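The counts of members lower in *Pou5f1*-KO ICMs and of those that rose from late morula to early ICM in Ctrl stayed within 1.5 times their main value under every alternative run. Of 51 called differences between KO and Ctrl or between knockout effects at members, 30 kept their call throughout. Over 745 alternative values 682 kept it, 63 lost it and 0 changed sign. Changes between stages were recomputed as counts only. When only the libraries compared were fitted, decreases numbered 0 in *Pou5f1*-KO morula and 5 from morula to late morula in Ctrl, increases 1 in *Pou5f1*-KO early ICM and 5 in *Sox2*-KO late ICM, and the Ctrl lines differed at 1 peak in late ICM. Without the trend, 1 peak was higher in *Pou5f1*-KO early ICM, 1 lower in *Sox2*-KO early ICM, 3 rose from morula to late morula, and the Ctrl lines differed at 2 in early ICM. When the peaks below the median rlog were left out (fewer peaks tested), 2 were lower in *Sox2*-KO late ICM, 1 fell from morula to late morula, 0 rose from early to late ICM in *Sox2* Ctrl, 1 fell from late morula to early ICM in *Pou5f1*-KO, and the Ctrl lines differed at 1 in early ICM. Quantile normalization gave 10 falls from morula to late morula, and a difference of at least 1 left 1 increase in *Pou5f1*-KO early ICM. The cause of these shifts was not tested, except where fewer peaks or libraries entered.

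With the replicate number as a block (16 residual degrees of freedom), decreases numbered 8 and increases 4 in *Sox2*-KO late ICM, 1 peak was lower in *Sox2*-KO early ICM, 4 fell from morula to late morula, 3 differed between the knockout effects in early ICM, and 1 in the *Pou5f1*-KO effect from late morula to early ICM. It moved no other count by over 1.5 times, and in the paired comparisons it changed no call but the early ICM calls given in the report. Own-number correlations outside the paired comparisons were between -0.0248 and 0.293, and not every library correlated best with its own number.

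Leaving out 1 library gave these ranges. *Pou5f1*-KO: morula 0 to 1 and late morula 0 to 1 lower, early ICM 9 to 14 lower and 1 to 2 higher, late ICM 18 to 23 lower. *Sox2*-KO: early ICM 0 to 1 lower (1 without KO replicate 1), late ICM 3 to 5 lower and 0 to 2 higher (2 without Ctrl replicate 1). Ctrl morula to late morula: 1 to 4 fell and 1 to 4 rose. Ctrl late morula to early ICM: 2 to 3 fell and 23 to 28 rose. *Sox2* Ctrl early to late ICM: 0 to 1 rose. *Pou5f1*-KO late morula to early ICM: 0 to 7 fell and 5 to 12 rose. Difference of the knockout effects: 1 to 2 in early ICM (2 without *Pou5f1*-KO replicate 1 or *Sox2*-KO replicate 4) and 3 to 6 in late ICM (3 without *Sox2*-KO replicate 2). *Pou5f1*-KO effect from late morula to early ICM: 0 to 2 (1 without KO late morula replicate 1, 2 without KO early ICM replicate 1). Ctrl lines: 0 to 3 in early ICM (3 without *Sox2* Ctrl replicate 1) and 0 to 1 in late ICM (1 without *Pou5f1* Ctrl replicate 1). At 1 mismatch fewer no member held the OCT-SOX word or the TFCP2L1 word.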

Other observations

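The genes whose mean accessibility followed each locus most closely over the 12 group means, among 11841 protein-coding genes with at least 5 peaks, are given as a description, since the group means of all genes share libraries. For *Esrrb* they were *Slc35f2* (Pearson r = 0.963), *Dpy30* (0.961) and *Fn1* (0.961), with a median over all genes of -0.034. For *Prdm14* they were *Slc26a7* (0.979), *Polg2* (0.96) and *S1pr2* (0.957). For *Tbx3* they were *Hspa9* (0.968), *Slc1a1* (0.968) and *Fbrs* (0.965). For *Tfcp2l1* the closest were looser: *Hnrnpu* (0.913), *Gk5* (0.899) and *Coil* (0.895). None of the other naive network genes was among them.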
